A study of Homo sapiens with 6 samples.

Results

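The MYC, MAX and MXD network was described in MDA-MB-231 cells, an established human breast cancer cell line. Its 10 members, MYC, MAX, MXD1, MXD3, MXD4, MXI1, MNT, MLX, MLXIP and MGA, were taken by gene symbol from the 54259 genes of the count table, and all 10 passed the expression filter. RNA-Sequence had been performed on 3 libraries of shBry cells, in which a hairpin RNA targets brachyury, and on 3 libraries of shNC cells with a control hairpin. Both groups are MDA-MB-231 cells, and the labels give no treatment, time or clone, nor whether replicates were separate cultures, so the spread between replicates may be technical. The study asked which genes and pathways lie downstream of brachyury in tumor cells. The members were chosen by symbol with the fold changes of shBry relative to shNC already known. Their counts and fold changes are therefore given as a description, without p-values.

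MYC is a basic helix-loop-helix leucine zipper factor that binds DNA as a heterodimer with MAX, mostly at the E-box CACGTG, and raises the transcription of genes for ribosome production, nucleotide and amino acid metabolism and cell division. MXD1, MXD3, MXD4, MXI1 and MNT compete for MAX and for the same sites, and recruit the SIN3 histone deacetylase complex to repress transcription. MLX is a second hub, which pairs with MLXIP, a sensor of glucose phosphates also called MondoA, and with several MXD proteins. MGA joins a T-box domain, the DNA-binding domain that also defines brachyury, to a MYC-like domain that binds MAX, and is a scaffold of the Polycomb complex PRC1.6.

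The libraries held between 19319411 and 22985371 counts, and members had between 52 and 16056 counts in a library. Brachyury, listed as T, had 0 counts in all 6 libraries, so the knockdown could not be checked. A level of 3 counts would be at most 0.155 CPM (counts scaled to a common library size). The paper describes brachyury as constitutively overexpressed in this line, while the shNC libraries also held no count of it. The reason for this difference was not tested. The markers VIM, CD44, AXL, KRT18 and EGFR were all detected, while ESR1, PGR and CDH1, which this line lacks, had between 0 and 3 counts together in a library. The 7 leukocyte and endothelial markers had 20 to 28 counts together in shNC libraries and 10 to 14 in shBry libraries, with PTPRC and TYROBP at 0. A further 8 pericardial, mesothelial and heart markers were looked up because the series text calls the RNA pericardial. MSLN had 552 to 757 counts in shNC and 914 to 1047 in shBry, with means of 32.1 and 45.9 CPM. CALB2 had 222 counts in shNC replicate 3 and 14 to 30 elsewhere. WT1, UPK3B, TNNT2 and ACTC1 had at most 7 counts in a library, and MYH6 and NPPA were at 0. The part of these markers in the results was not tested.

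The balance of the network differed between the groups. MYC and 3 of its antagonists (MXD1, MXI1 and MNT) were higher in shBry, MXD3 and MXD4 were lower, and MAX, MLX, MLXIP and MGA were not called. Over 15277 genes tested with edgeR, a call needed more than a 1.5-fold difference and an adjusted p under 0.05. The study used the same fold limit with P, not stated to be adjusted. By this rule 4 members were called higher and 2 lower, which is 60% of the members, beside 32.4% of all tested genes (17.1% higher and 15.2% lower). Without a fold limit 8 members passed, beside 53.3% of all tested genes, and with a limit of 2 it was 3 members, beside 15%. The 3 values of shBry did not overlap the 3 values of shNC in 9 of the 10 members, with 5 higher and 4 lower, beside 59.5% of all tested genes (30.6% higher and 28.9% lower). The median log2 fold change was 0.28 over the members and 0.03 over all tested genes. The members had been chosen with this comparison in view, so nothing is read from these shares. In bulk RNA, fewer cells expressing a gene and less RNA per cell cannot be told apart.

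**Figure D1:**
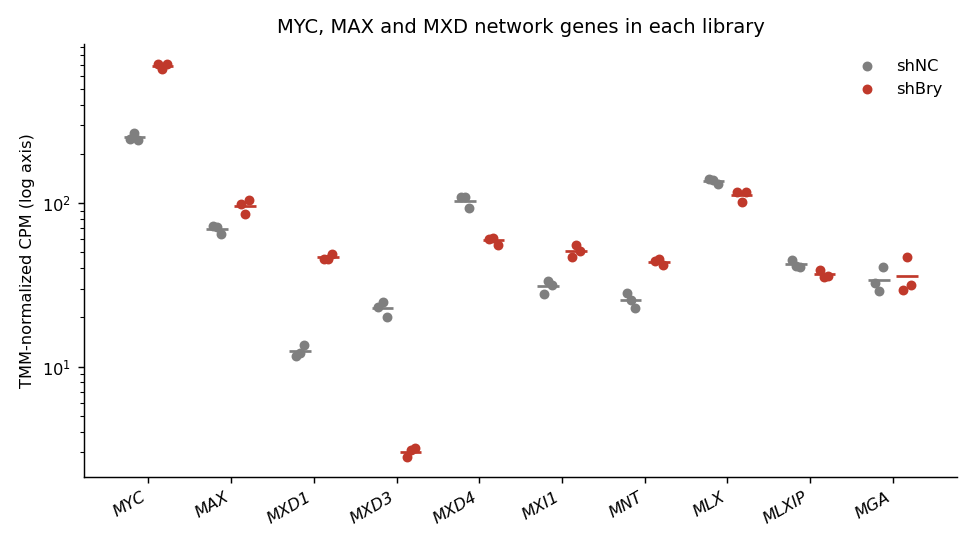
Level of each member in each library as TMM-normalized CPM on a log axis, for shNC (grey) and shBry (red), with a horizontal line at the mean of 3 libraries. MYC rises from a mean of 253 to 692 CPM, MXD1 and MXD3 move in opposite directions, and the libraries of MGA overlap.

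MYC (ENSG00000136997.17, protein coding) lies on the plus strand of chromosome 8 of GRCh38, from 127735434 to 127741434. It had 247, 267 and 243 TMM-normalized CPM in shNC replicates 1, 2 and 3. In shBry replicates 1, 2 and 3 it had 705, 660.0 and 712 CPM. Each shBry library was thus far above each shNC library, and the replicates lay close together. The mean was 253 ± 12.8 CPM in shNC and 692 ± 28.2 CPM in shBry (SD, n = 3), a log2 fold change of 1.45 ± 0.08 (SE) or 2.74-fold. These are RNA levels, while MYC protein is also set by rapid degradation, which was not measured here. By its mean level MYC was at the 98.1 percentile of the tested genes.

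MAX, the shared partner of MYC, MXD and MGA proteins, lies on the minus strand of chromosome 14, from 65006174 to 65102695. It had 72.8, 71.0 and 64.5 CPM in shNC. In shBry it had 99.3, 85.9 and 105 CPM. The groups did not overlap, and the log2 fold change was 0.48 ± 0.09 (SE), or 1.39-fold, under the fold change limit.

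The MXD antagonists moved in both directions. MXD1, the founding member of the family, which is known to rise when cells leave the cycle and differentiate, lies on the plus strand of chromosome 2, from 69897688 to 69942945. It had 11.6, 12.1 and 13.5 CPM in shNC and 45.6, 45.6 and 48.7 CPM in shBry. This was the largest rise among the members, with a log2 fold change of 1.91 ± 0.11 (SE), or 3.76-fold.

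MXD3, which differs from its relatives in being expressed in proliferating cells around S phase, lies on the minus strand of chromosome 5, from 177301461 to 177312757. It was counted 505, 528 and 400 times in shNC and 52, 73 and 72 times in shBry. In CPM this was 23.1, 24.96 and 20.03 against 2.80, 3.08 and 3.19. All shBry libraries were thus far below all shNC libraries, with a log2 fold change of -2.90 ± 0.15 (SE), or 7.48-fold lower, and MXD3 was at the 0.164 percentile of the fold changes of all tested genes. Exons of other genes cover 40.4% of its exon bases, and PRELID1 on the opposite strand alone covers 22.5%. Whether reads were counted by strand is not given in the sources used here, so reads of such stretches are uncertain.

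MXD4 lies on the minus strand of chromosome 4, from 2247432 to 2262294, and per length was the most abundant antagonist in shNC. Its level was 108, 109 and 93.5 CPM in shNC and 60.6, 61.6 and 55.2 CPM in shBry. It was lower in all shBry libraries, with a log2 fold change of -0.81 ± 0.09 (SE), or 1.75-fold lower. MXI1, the antagonist also known as MXD2, lies on the plus strand of chromosome 10, from 110207605 to 110287365. It had 27.9, 33.3 and 31.7 CPM in shNC and 47.1, 55.3 and 50.9 CPM in shBry. It was higher in all shBry libraries, with a log2 fold change of 0.72 ± 0.10 (SE), or 1.65-fold.

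MNT, the broadly expressed antagonist of the network, lies on the minus strand of chromosome 17, from 2384060 to 2401118. It had 28.0, 25.5 and 22.8 CPM in shNC and 44.1, 45.4 and 42.0 CPM in shBry. The groups did not overlap, with a log2 fold change of 0.78 ± 0.11 (SE), or 1.72-fold. Exons of AC006435.1 on the opposite strand cover 12.2% of its exon bases.

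Neither member of the MLX branch was called. MLX, on the plus strand of chromosome 17 from 42567068 to 42573239, had 141, 138 and 131 CPM in shNC and 117, 102 and 118 CPM in shBry. Its log2 fold change was -0.28 ± 0.08 (SE), and PSMC3IP on the opposite strand covers 18.1% of its exon bases. MLXIP, on the plus strand of chromosome 12 from 122078722 to 122147347, had 44.9, 41.0 and 40.8 CPM in shNC and 38.8, 35.4 and 35.999 CPM in shBry. Its log2 fold change was -0.20 ± 0.10 (SE). The groups did not overlap for either gene. MLX was under the fold change limit, and MLXIP passed neither limit.

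MGA, on the plus strand of chromosome 15 from 41621224 to 41773081, was the member whose groups overlapped. It had 32.5, 28.9 and 40.6 CPM in shNC and 29.6, 46.7 and 31.7 CPM in shBry, with a log2 fold change of 0.09 ± 0.16 (SE). shBry replicate 2 was 1.47 times the median of its group. Without it the log2 fold change was -0.16, so no direction is given for MGA. The coefficient of variation of MGA was 17.7% in shNC and 25.8% in shBry, against 3.68% to 11.0% for the other members over both groups.

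Levels of different genes were compared per length, as CPM per kilobase of exon. In shNC the order from high to low was MYC (84.1 ± 4.26), MLX (32.1 ± 1.18), MAX (15.7 ± 0.987), MXD4 (14.7 ± 1.25), MXI1, MXD3, MLXIP, MNT, MXD1 and MGA (1.93 ± 0.341; SD, n = 3). The libraries of neighbours overlapped for MAX and MXD4, for MLXIP and MNT, and for MXD1 and MGA. In shBry the order was MYC (230.7 ± 9.40), MLX (26.3 ± 2.15), MAX (21.8 ± 2.17), MXI1 (11.1 ± 0.891), MXD4 (8.38 ± 0.488), MXD1 (7.34 ± 0.286), MNT, MLXIP, MGA and MXD3 (0.587 ± 0.0391), with an overlap for MLXIP and MGA. By this length MXI1 thus took the place of MXD4 as the most abundant antagonist, MXD1 moved from ninth to sixth, and MXD3 moved from sixth to last. With the longest transcript as the length, MXI1 led MXD4 in shBry by its mean only (14.713 against 13.986 CPM per kilobase). The libraries of MXI1 and MXD4 overlapped by that length, so which of them led in shBry depends on the length used. By the longest transcript MXD1 moved from rank 10 to 7 and MXD3 from 5 to 10.

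**Figure D2:**
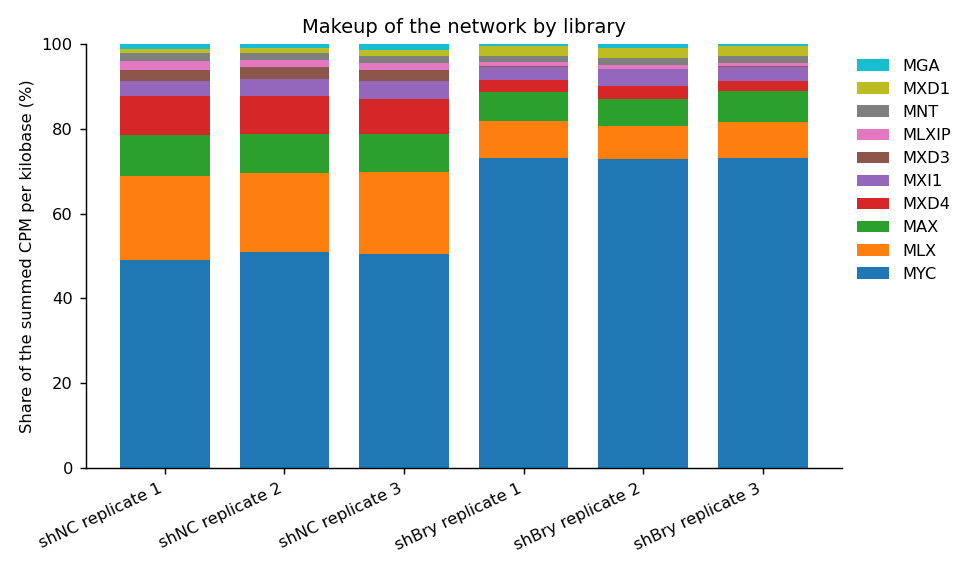
Makeup of the network in each library, as the percent of the summed CPM per kilobase of exon that each of the 10 members holds. MYC takes 49.1 to 51.0% in the 3 shNC libraries and 72.8 to 73.2% in the 3 shBry libraries, while the band of MXD3 shrinks and that of MXD1 widens.

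The summed level of the antagonists hardly differed while its makeup did. MXD1, MXD3, MXD4, MXI1 and MNT together had 30.9, 32.3 and 28.7 CPM per kilobase in shNC and 31.6, 33.7 and 32.0 in shBry, so the groups overlapped. MYC was 2.66, 2.75 and 2.82 times this sum in shNC and 7.44, 6.53 and 7.42 times in shBry. The mean ratio was 2.75 ± 0.0786 against 7.13 ± 0.523 (SD, n = 3), a log2 difference of 1.38. MAX was 0.143, 0.130 and 0.130 times the sum of its partners MYC, MXD1, MXD3, MXD4, MXI1, MNT and MGA in shNC. In shBry it was 0.0835, 0.0757 and 0.0872 times that sum, lower in every library. With the longest transcript as the length, the log2 difference of the MYC ratio was 1.56.

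Promoters were searched for the E-box, since it is the site that the network binds. RefSeq windows of 250 bases before a gene start (GRCh38.p14) were given for 9 of the 10 members. The member without a window was MYC, whose promoter was therefore not searched. MLX, MNT and MXD4 held CACGTG, which reads the same on both strands. The match began 50 bases before the start of MLX, 193 before MNT and 238 before MXD4. These are RefSeq starts, which for these 3 genes differ from the GENCODE positions given above. The window of MXD1 likewise lies inside its GENCODE gene. Over all genes with a window, 7.73% of 27305 held CACGTG, and among 10516 tested genes 11.2% did. These 3 genes did not move together, as MNT was called higher, MXD4 was called lower and MLX was not called. The related site CACGCG, searched on both strands, was found among the members in MGA alone, 21 bases before the second of its 3 starts. It was found in 11.5% of all genes and in 19.2% of tested genes. The stretches of the windows that lie outside annotated exons follow, 5′ to 3′ on the strand of the gene, with the E-box in capitals. MXD1 and MXD3, the members with the largest rise and fall, are shown beside them and hold neither site.
MLX, chr17:42566850-42567067, plus strand: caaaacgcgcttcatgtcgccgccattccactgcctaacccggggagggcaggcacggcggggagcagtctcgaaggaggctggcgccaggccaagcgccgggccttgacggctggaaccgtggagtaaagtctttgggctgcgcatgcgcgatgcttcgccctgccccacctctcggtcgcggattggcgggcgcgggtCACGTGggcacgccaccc
MNT, chr17:2401119-2401310, minus strand: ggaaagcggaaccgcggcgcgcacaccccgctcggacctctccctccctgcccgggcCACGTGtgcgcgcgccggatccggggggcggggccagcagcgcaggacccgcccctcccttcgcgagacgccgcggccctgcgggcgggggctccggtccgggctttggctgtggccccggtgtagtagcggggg
MXD4, chr4:2262295-2262359, minus strand: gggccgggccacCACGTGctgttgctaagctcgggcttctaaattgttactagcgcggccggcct
MXD1, chr2:69914859-69915040, plus strand: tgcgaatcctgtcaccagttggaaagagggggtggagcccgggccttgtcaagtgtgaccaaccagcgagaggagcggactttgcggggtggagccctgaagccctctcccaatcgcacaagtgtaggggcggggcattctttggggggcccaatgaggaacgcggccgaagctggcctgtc
MXD3, chr5:177312758-177313002, minus strand: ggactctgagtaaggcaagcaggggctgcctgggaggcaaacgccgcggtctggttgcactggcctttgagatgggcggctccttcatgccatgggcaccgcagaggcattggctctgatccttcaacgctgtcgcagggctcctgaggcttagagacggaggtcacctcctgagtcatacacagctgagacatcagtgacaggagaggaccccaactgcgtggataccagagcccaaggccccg
Tested genes with CACGTG in a window had a median log2 fold change of 0.03 and those without it 0.02, and 30.5% and 32.1% were called. A match is a run of letters and does not show binding.

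Of the network genes outside the members, MYCN had at most 2 counts in a library. MYCL, a paralog of MYC, had 3.56 ± 0.648 CPM in shNC and 4.87 ± 1.04 CPM in shBry, which did not pass the test (edgeR, adjusted p = 0.0868). MLXIPL, the paralog of MLXIP known as ChREBP, was called lower, with 37, 25 and 20 counts in shNC and 4, 18 and 7 in shBry (log2 fold change -1.54 ± 0.44, SE; adjusted p = 0.00865).

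The 2 genes looked up as known targets of MLXIP and MLX, TXNIP and ARRDC4, were both higher in shBry. They were chosen with earlier results of these data known and do not stand for all targets of these factors. TXNIP, which encodes an inhibitor of glucose uptake, had 139, 155 and 135 CPM in shNC and 1429, 1790.0 and 1610.4 CPM in shBry. Its log2 fold change was 3.49 ± 0.10 (SE; adjusted p = 6.23e-12). ARRDC4, an arrestin domain gene with a related function, had 2.02, 3.03 and 3.66 CPM in shNC and 27.6, 41.0 and 35.6 CPM in shBry. Its log2 fold change was 3.59 ± 0.20 (SE; adjusted p = 5.02e-09). Both targets were thus far higher in each shBry library, while MLX and MLXIP were not called.

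**Figure D3:**
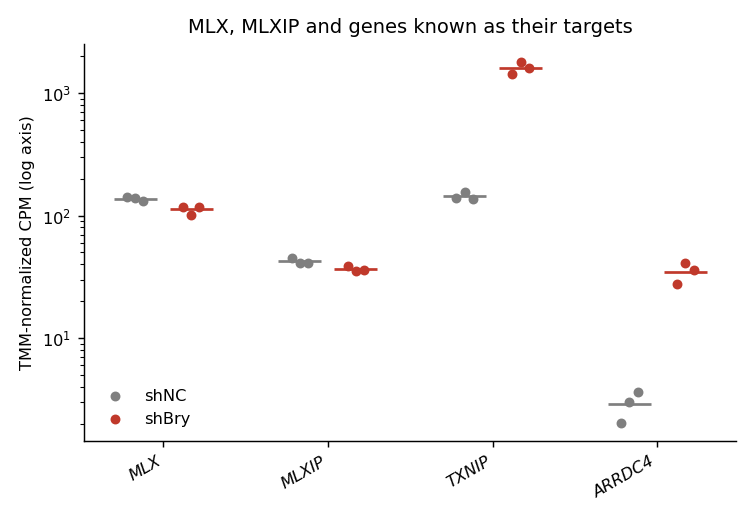
TMM-normalized CPM on a log axis of MLX, MLXIP and the known target genes TXNIP and ARRDC4 in each library of shNC (grey) and shBry (red), with a line at the mean of 3 libraries. The 2 factors were not called, and the 2 targets are higher in shBry, from a mean of 143 to 1609.9 CPM for TXNIP and from 2.90 to 34.7 CPM for ARRDC4.

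Known MYC target genes were called in both directions. In a list of 57 targets, mostly of ribosome production and the cell cycle, 56 were tested, 12 were called higher and 10 lower (39.3%, beside 32.4% of all tested genes), and the median log2 fold change was 0.12. The genes called higher were RRP12, WDR43, GNL3, NIP7, RRP9, RCL1 and MPHOSPH10, which act in ribosome assembly or the nucleolus, PRMT3, whose product methylates a ribosomal protein, and RABEPK, NDUFAF4, AIMP2 and DUSP2. RRP12, for export of ribosomal subunits, had 59.8 ± 2.17 CPM in shNC and 161 ± 15.9 CPM in shBry, a log2 fold change of 1.43. WDR43 and GNL3 had log2 fold changes of 1.05 and 0.97. DUSP2 rested on 1 to 3 counts in shNC libraries and 11 to 18 in shBry libraries.

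The 3 targets with the smallest adjusted p were all lower. MCM5, a subunit of the replicative helicase, had a log2 fold change of -2.49 ± 0.10 (SE; adjusted p = 1.32e-10). MCM4, of the same helicase, had -1.69 ± 0.07 (SE; adjusted p = 4.08e-10). TMEM97, a sterol-regulated gene, had -2.53 ± 0.11 (SE; adjusted p = 5.18e-10). PLK1 and UNG, of mitosis and of uracil repair, had -1.70 and -1.27. DCTPP1, HSPE1, PHB, TBRG4 and UTP20 were the other genes called lower, and UTP20 is itself a factor of ribosome assembly.

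Of the textbook targets, NPM1, for nucleophosmin, had 973 ± 128 CPM in shNC and 1307 ± 57.7 CPM in shBry, or 0.43 on the log2 scale (adjusted p = 0.00155), which is below the limit of 1.5-fold. NCL, for nucleolin, had 0.59 (adjusted p = 0.000123) and was called higher. CDK4, a kinase of the G1 phase, had 435 ± 18.6 and 462 ± 52.7 CPM, and its groups overlapped (log2 fold change 0.09, adjusted p = 0.44). Exons of TSPAN31 on the opposite strand cover 43.2% of the exon bases of CDK4.

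In the list of 22 metabolic MYC targets, 7 were called higher and 3 lower (45.5%, beside 32.4% of all tested genes), with a median log2 fold change of 0.30. ODC1, the first enzyme of polyamine synthesis, had 151, 157 and 156 CPM in shNC and 607, 463 and 573 CPM in shBry (log2 fold change 1.83 ± 0.10, SE; adjusted p = 3.05e-09). The amino acid transporter genes SLC3A2, SLC7A5 and SLC1A5, which are also targets of the stress factor ATF4, had log2 fold changes of 2.26, 1.91 and 1.61, with adjusted p of 1.65e-10, 2.01e-10 and 2.42e-09. The purine synthesis genes PPAT and ATIC and the polyamine gene AMD1 were called higher too, with 0.76, 0.71 and 0.60. LDHA, the lactate dehydrogenase gene and a textbook MYC target, went the other way, with 2699 ± 60.3 CPM in shNC and 1013 ± 85.8 CPM in shBry (log2 fold change -1.41, adjusted p = 7.26e-09). SHMT1 and PRPS2 were the other genes called lower, with -1.72 and -0.66.

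Of 9 genes known to be repressed by MYC, CDKN2B had 0 counts and 8 were tested, with 3 called higher and 1 lower (50%, beside 32.4% of all tested genes). GADD45A, a growth arrest gene, CDKN1A, which encodes p21, and DDIT3, the stress factor gene also called CHOP, had log2 fold changes of 3.82, 2.13 and 1.93, with adjusted p of 1.31e-11 and 2.45e-10 for the first pair. They were thus higher together with MYC. Exons of other genes cover 39.6% of the exon bases of DDIT3, and MARS on the opposite strand alone covers 27.2%, so reads of such stretches are uncertain. NDRG2 was lower, with -2.38 (adjusted p = 6.82e-08). CDKN1B, NDRG1, CLU and THBS1 were not called, with 0.21, -0.12, -0.05 and 0.11.

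**Figure D4:**
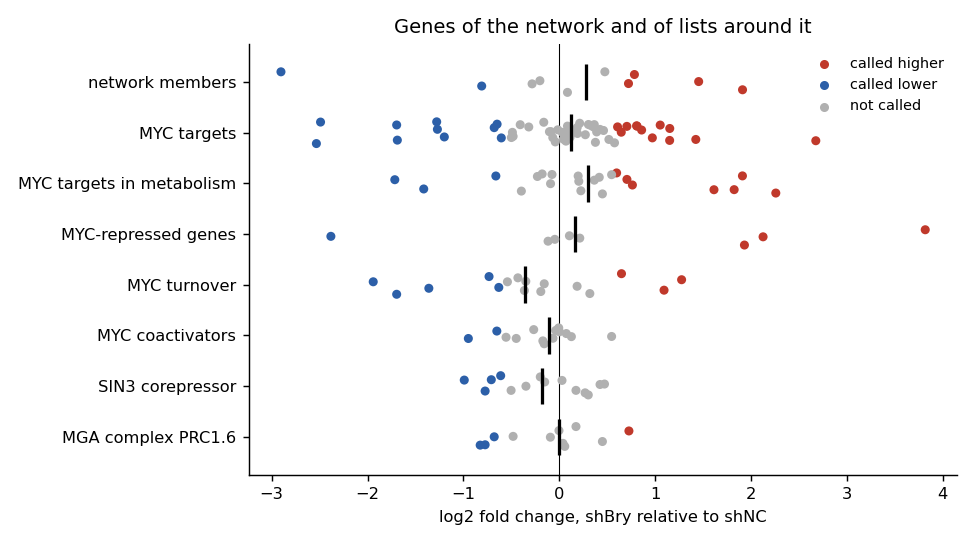
Log2 fold change of shBry relative to shNC for each tested gene of the network and of 7 lists around it, with genes called higher in red, called lower in blue and not called in grey, and a black bar at the median of each list. The MYC targets reach from -2.53 to 2.68 around a median of 0.12, and no gene of the coactivator and SIN3 lists passed the 1.5-fold limit upward.

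Genes that act on the MYC protein were called in both directions, with 3 of 16 higher and 5 lower (50%, beside 32.4% of all tested genes) and a median log2 fold change of -0.36. SKP2, a ubiquitin ligase subunit for MYC, had -1.94 (adjusted p = 5.39e-09), and PLK1, also in the target list, had -1.70 (adjusted p = 1.64e-09). AURKA, a mitotic kinase that protects the paralog MYCN from degradation, GSK3B, the kinase that marks MYC for degradation, and USP28, which removes ubiquitin from MYC, had -1.36, -0.73 and -0.63. USP36, the nucleolar enzyme that removes ubiquitin from MYC, was higher, with 1.28 (adjusted p = 2.53e-08). PIM1 and FBXO32 were called higher with 1.09 and 0.65. FBXW7, the main ubiquitin ligase subunit for MYC, was not called, with 0.32 (adjusted p = 0.0876). Factors that stabilize MYC and factors that remove it were therefore found on both sides.

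Of 14 coactivator genes, none was called higher and 2 were called lower (14.3%, beside 32.4% of all tested genes). Without a fold limit 1 was higher and 5 lower, that is 6 of 14, beside 53.3% of all tested genes. HCFC1, a cofactor that binds MYC, had -0.95 (adjusted p = 3.54e-07) and KAT2A, the acetylase GCN5, had -0.65 (adjusted p = 1.20e-05).

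Of the 14 genes of the SIN3 complex, through which MXD proteins and MNT repress, none was called higher and 4 were called lower (28.6%, beside 32.4% of all tested genes). Without a fold limit 4 were higher and 4 lower, that is 8 of 14, beside 53.3% of all tested genes. HDAC1, RBBP7 and RBBP4, subunits of several deacetylase complexes, had -0.77, -0.71 and -0.99 (adjusted p of 2.32e-06, 1.10e-05 and 2.84e-05), and SUDS3 had -0.61. The scaffold genes SIN3A and SIN3B, with 0.30 and 0.27, were among the 4 that were higher without the fold limit (adjusted p = 0.0082 and 0.012), beside SAP18 and ARID4B. Of the 12 genes of the MGA complex, 11 were tested, 1 was called higher and 3 lower (36.4%, beside 32.4% of all tested genes). TFDP1 and TFDP2, the partners of E2F factors, had -0.83 and -0.68 (adjusted p of 2.73e-06 and 1.79e-05). The complex shares HDAC1 and HDAC2 with the SIN3 list, and HDAC2 was not called, with 0.17. YAF2 was higher, with 0.73. RING1 had at most 3 counts in a library, and nothing is read from it.

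Over the 6 libraries, the genes most like MYC in log2 CPM centred on their own mean, among 9413 genes whose mean reached 10 CPM, were SNHG8, JDP2, DUSP5, GYPC and HERPUD1. Their root mean square distance to MYC lay between 0.0304 and 0.0581 on the log2 scale. The genes most like MXD3 were LRRC45, FXYD6, SDPR, KIF20A and TMEM97, at 0.0994 to 0.223. These distances are ruled by the difference between the groups and describe likeness only.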

How the data were processed

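RNA of 3 shBry and 3 shNC libraries of MDA-MB-231 cells was sequenced by the authors, who deposited raw counts, whole numbers of reads per gene symbol with no normalization. The submitters' processing notes name HISAT2 2.0.4, HTSeq and GRCh38. The annotation and the strand setting are not given in the sources used here. Groups came from the sample labels.

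The deposited counts were passed through filterByExpr (minimum count 10) and TMM scaling in edgeR 4.0.16 (R 4.3.3), and its quasi-likelihood F-test was adjusted by Benjamini-Hochberg over 15277 genes. The script was first tested on simulated data. SE is the size of the log2 fold change over the root of its F statistic. Exon lengths, positions and overlaps came from GENCODE 29, promoters from RefSeq (GRCh38.p14), both matched by symbol. Exon lengths are unions over all transcripts. Other genes of the lists share exon bases with neighbours too, and not all of these overlaps are given.

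The members and lists were chosen with earlier results of these data known, the lists by hand and from background knowledge. All members were named, with the MYC, MLX and MLXIP paralogs and targets, all MYC-repressed genes, NCL, NPM1, CDK4, ODC1 and LDHA, the 3 smallest adjusted p of each other list, and the 5 genes most like MYC and MXD3. Other genes were named after their values were seen. One coactivator gene that the rule names is not reported here. Lists were described by counts and medians, without set tests. As alternatives, DESeq2 1.42.0, limma-voom (limma 3.58.1), unscaled library sizes, other filters, other fold change limits, the replicate number as a block, and leaving out each library were tried. The floor of 3 counts covers counting error only, while SE includes the spread between libraries.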

Additional observations from a re-analysis of the deposited data

How the results depend on the processing

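Of 120 refits of single members (12 alternatives for each of 10), 118 kept the direction and the side of the call. The exceptions were MGA without shBry replicate 2 (-0.16) and without shNC replicate 2 (-0.03), against 0.09 in full, and leaving out single libraries gave -0.16 to 0.21. MYC lay between 1.40 and 1.48 over all alternatives, MXD1 between 1.86 and 1.95, MXD3 between -3.01 and -2.85, MXD4 between -0.90 and -0.76, MXI1 between 0.65 and 0.78 and MNT between 0.69 and 0.85. The fold change limit moved the counts most, by its own construction. With a limit of 2, 3 members (MYC, MXD1 and MXD3) were called in place of 6, 12 MYC targets in place of 22, 6 metabolic targets in place of 10, 5 turnover genes in place of 8, and 0 coactivator, 0 SIN3 and 0 MGA complex genes in place of 2, 4 and 4. With no limit, 38 of 56 MYC targets (23 higher, 15 lower), 6 of 14 coactivator genes (1 higher, 5 lower) and 8 of 14 SIN3 genes (4 higher, 4 lower) were called. Of all tested genes, 15% were called with a limit of 2 and 53.3% with no limit. Without shNC replicate 3, 1 SIN3 gene was called higher. The log2 difference of the MYC ratio, 1.38 in full, was 1.56 with the longest transcript as the length and 1.48 without MNT.

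Same-numbered replicates did not deviate together (r = 0.183, -0.0840 and -0.0282 across genes), so the numbers were not taken to pair the samples. With the replicate number as a block, 4914 genes were called in place of 4945, and 6 members. MGA and MXD3 had the largest standard errors among the members, 0.16 and 0.15, and MXD3 rests on 52 to 73 counts in each shBry library.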

Other observations

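Other factors that bind E-boxes were looked up after the members had been seen. Of 9 such genes, 8 were tested, with 1 called higher and 2 lower (37.5%, beside 32.4% of all tested genes). USF1, the upstream stimulatory factor gene, had 67.1 ± 1.87 CPM in shNC and 37.9 ± 4.43 CPM in shBry (SD, n = 3), which is -0.83 on the log2 scale (edgeR, adjusted p = 9.65e-06). The sterol regulator genes moved apart, with 0.69 for SREBF1 (adjusted p = 1.53e-05) and -0.78 for SREBF2 (adjusted p = 1.31e-06). USF2, TFE3, TFEB, MITF and TFAP4 were not called, with log2 fold changes between -0.24 and 0.46, and TFEC had at most 1 count.

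PVT1, the noncoding RNA gene beside MYC on chromosome 8, had 39.6, 43.1 and 38.4 CPM in shNC and 84.4, 68.7 and 76.5 CPM in shBry, or 0.92 on the log2 scale ± 0.10 (SE; adjusted p = 2.86e-06). Its groups did not overlap. Of the 3 arrestin domain genes related to ARRDC4, ARRDC1 and ARRDC3 were called higher, with 0.63 and 1.18. ARRDC2 had 0.46 and was not called. The share called was 66.7%, beside 32.4% of all tested genes.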
